A study of Homo sapiens with 11 samples.

Results

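The 10 genes described here encode the enzymes that remove superoxide and most hydrogen peroxide in human cells: the superoxide dismutases SOD1, SOD2 and SOD3, catalase (CAT) and the peroxiredoxins PRDX1 to PRDX6. They were taken by gene symbol from a table of 60605 features, and all 10 were listed once each. The table came from 11 polyA RNA libraries of ARPE-19, an established human retinal pigment epithelium (RPE) cell line. Stable ARPE-19 lines were sampled 4 days after expression of an open reading frame: GFP, a fluorescent protein used as the control (n = 3 libraries), Oct4, Sox2, Klf4, or Oct4, Sox2 and Klf4 together (OSK; n = 2 libraries each). All groups, the GFP control included, were thus stable lines expressing an open reading frame. The library names of the factor lines, but not those of GFP, also carry the tag mC, which the labels do not explain, so whatever it stands for and the factors cannot be told apart in the comparisons with GFP. The labels do not say whether a line was 1 clone, what drove the open reading frames, or whether replicates were separate cultures, so the p-values measure the spread between these libraries. Per the series' design text, the libraries served to show which candidate oxidative effectors these factors induce.

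Superoxide forms in mitochondria and at NADPH oxidases, and superoxide dismutases turn it into hydrogen peroxide. Catalase breaks hydrogen peroxide down in peroxisomes, and peroxiredoxins reduce it with a reactive cysteine that thioredoxin or, for PRDX6, glutathione then restores. The RPE works under high oxygen, strong light and a heavy load of shed photoreceptor membrane, and these enzymes are among its main defences.

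Levels are given as normalised counts: reads per gene that the authors scaled by 1 factor in each library. Library totals ran from 15053300 to 19791775 reads. Between 25853 and 26971 features had reads in 9 libraries, against 42956 in GFP replicate 1 and 32493 in OSK replicate 1, and without these 2 libraries the numbers of genes passing below were 7 for Oct4, 7 for Sox2, 4 for Klf4 and 6 for OSK against GFP, within 1.5 times of those with them. The 10 genes had from 83 to 7869 reads in a library, and SOD3 was the only one under 500 reads. The delivered factor genes matched the labels: POU5F1 (Oct4) averaged 67074 normalised counts in the Oct4 line and 263 in GFP, SOX2 29123 in the Sox2 line and 62.0 in GFP, and KLF4 23173 in the Klf4 line and 72.1 in GFP. At lower levels, SOX2 also exceeded GFP in the Oct4 and Klf4 lines (means 188 and 160, limma adjusted p = 2.6e-06 and 1.82e-05). So did KLF4 in the Oct4 line (245, 6.12e-05) and POU5F1 in the Klf4 line (369, 0.0449). In the Sox2 line POU5F1 and KLF4 averaged 228 and 89.9 (limma adjusted p = 0.251 and 0.212). In OSK, POU5F1 averaged 19281, SOX2 17673 and KLF4 24336. The log2 differences of OSK from the line of each single factor were -1.80 for POU5F1, -0.72 for SOX2 and 0.07 for KLF4 (limma adjusted p = 7.92e-07, 0.008 and 0.907). Of 14 RPE markers 11 passed the filter on low values, but RPE65, a defining enzyme of the visual cycle, was at most 0.990 in GFP. The summed RPE marker level was 31686 to 35306 in GFP and lower in every factor line (14025 to 14382 in OSK). KRT8 and KRT18, with GFP means of 15930 and 5307, made up most of this sum. The means of KRT8, KRT18, PMEL, MITF, TYRP1, SERPINF1 and TYR were below GFP in every factor line. Not all RPE markers fell: RDH5 averaged 75.1 in GFP and 74.7 with Sox2, but 189 with Oct4, 462 with Klf4 and 178 with OSK. The summed level of 5 fibroblast markers was 2940 to 4867 in GFP, 7053 to 8407 in the Sox2 line and 583 to 823 in OSK, and was mostly COL1A1. Of 3 immune, 3 photoreceptor and 3 erythroid markers 0 passed the filter, and of 3 endothelial markers 2 did, with a summed level of 1.94 to 124 in GFP. Whether these shifts bear on the values below was not tested. In bulk libraries fewer cells expressing a gene and less RNA per cell cannot be told apart.

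PRDX6 showed the largest response of the 10 genes, rising to 3.46 times the GFP mean in OSK. CAT rose most in the Klf4 line and in OSK, which did not differ beyond their spread (-0.05, limma adjusted p = 0.746). PRDX5 rose most in the Klf4 line, but its difference from OSK was not called under every alternative fit. PRDX4 rose most in the Oct4 line, and SOD3 fell most in the Sox2 line. SOD2, PRDX1 and PRDX3 fell in both the Oct4 and the Sox2 line, while their log2 changes in OSK were 0.01, 0.22 and 0.05. The plot of every library shows these patterns gene by gene.

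**Figure D1:**
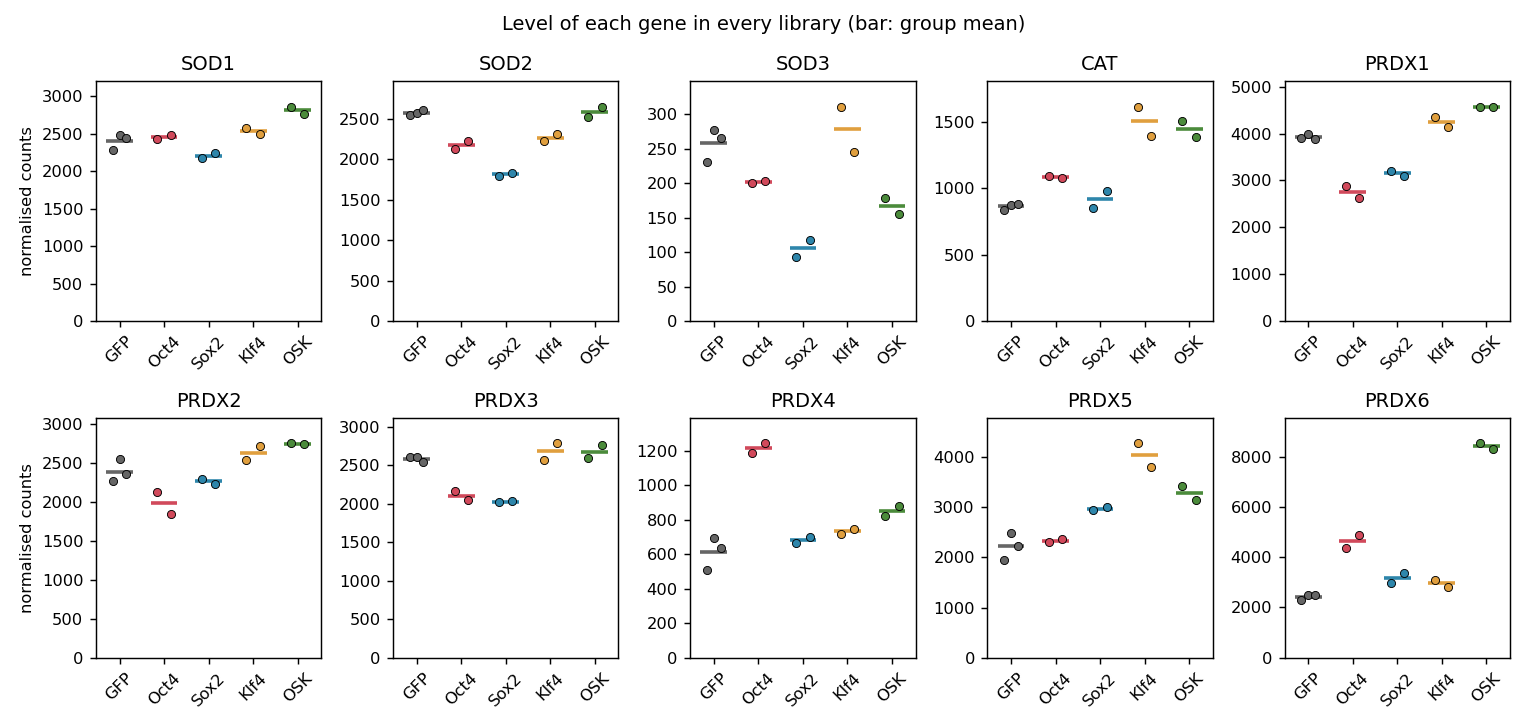
Normalised counts (y axis, from 0, a separate scale per gene) of the 10 genes in each of 11 libraries (points), by line (x axis), with group means as bars. PRDX6 lies at 8530 and 8294 in OSK against 2286 to 2516 in GFP. CAT is highest in the Klf4 line and OSK, whose libraries overlap. PRDX5 is highest in the Klf4 line, PRDX4 is highest in the Oct4 line and SOD3 is lowest in the Sox2 line.

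Each line was compared with GFP by limma on log2(value + 1) over 18828 genes, with p-values adjusted over all of them and a threshold of 0.05. In the Oct4 line 7 of the 10 genes passed, 3 higher and 4 lower, where 37.3% of all genes tested passed (20.1% higher, 17.2% lower). In the Sox2 line 6 passed, 2 higher and 4 lower (41.6% of all genes, 21.7% higher and 19.9% lower). In the Klf4 line 4 passed, 3 higher and 1 lower (33.5%, 17.6% higher and 16% lower), and in OSK 8 passed, 7 higher and 1 lower (39.7%, 19.7% higher and 20% lower). Among the 11067 genes with a mean of at least 100 normalised counts, a level that all 10 reached, the shares passing were 51.5%, 56.3%, 46.2% and 54.2%. The median log2 change of the 10 genes was -0.11, -0.10, 0.13 and 0.22 in the 4 lines, beside -0.02, -0.02, -0.02 and -0.01 over all genes. Only SOD3 in the Sox2 line and PRDX6 in OSK changed by 1 or more on the log2 scale, and PRDX4 in the Oct4 line lay at 1.00 after rounding. The 4 comparisons share the GFP libraries.

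Leaving out Klf4 replicate 1 lowered the Klf4 count to 2, and leaving out OSK replicate 1 lowered the OSK count to 5. When the reads were instead scaled by TMM factors over all features, the counts were 4 for Oct4, 2 for Klf4 and 5 for OSK. The calls lost under that scaling were those of SOD2, PRDX2 and PRDX3 in the Oct4 line, SOD2 and PRDX6 in the Klf4 line, and SOD1, PRDX1 and PRDX2 in OSK, and also PRDX1 and PRDX3 in the Sox2 line.

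**Figure D2:**
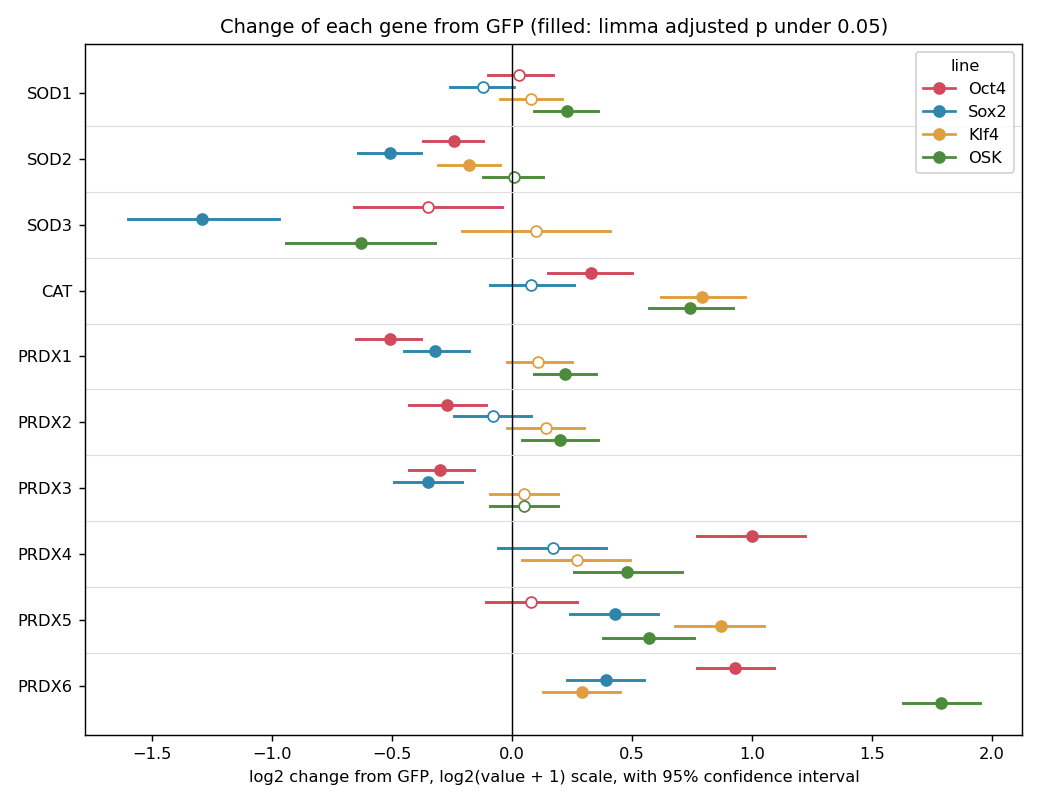
Log2 change from GFP (x axis) of each gene (rows) in the Oct4, Sox2, Klf4 and OSK lines (colours), with 95% confidence intervals from limma; filled points passed an adjusted p of 0.05. PRDX6 is to the right of 0 in all 4 lines and reaches 1.79 in OSK, while SOD3 reaches -1.29 in the Sox2 line.

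The superoxide dismutases differ in place: SOD1 is the copper and zinc enzyme of the cytosol, SOD2 the manganese enzyme of the mitochondrial matrix and SOD3 the secreted copper and zinc enzyme of the matrix outside cells. SOD1 (GRCh38 chromosome 21, 31659622 to 31668931) ran between 2171 and 2861 normalised counts over all 11 libraries. It averaged 2402 ± 110 in GFP (SD, n = 3) and 2811 ± 70.7 in OSK (n = 2), a log2 change of 0.23 (SE 0.06, adjusted p = 0.00874 by limma). Without OSK replicate 1 that change was 0.20 (limma adjusted p = 0.0845). Its changes in the Oct4, Sox2 and Klf4 lines were 0.03, -0.12 and 0.08, with 95% intervals from -0.10 to 0.17, -0.26 to 0.01 and -0.05 to 0.21, and none passed. In the Sox2 line the change passed without GFP replicate 1 (-0.16, limma adjusted p = 0.0374). OSK exceeded the Sox2 line by 0.35 (limma adjusted p = 0.000678).

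SOD2 (chromosome 6, 159669057 to 159762529 over the pair of GENCODE genes that carry its symbol) was 2541, 2571 and 2602 in GFP, 2120 and 2220 in the Oct4 line, 1792 and 1828 in the Sox2 line, 2224 and 2305 in the Klf4 line and 2515 and 2647 in OSK. All 6 single-factor libraries thus lay below all GFP libraries, the Sox2 libraries lowest, and the OSK libraries spanned the GFP range. The log2 change was -0.51 in the Sox2 line (SE 0.06, adjusted p = 5.04e-06 by limma), -0.24 in the Oct4 line (SE 0.06, adjusted p = 0.00471 by limma) and -0.18 in the Klf4 line (SE 0.06, adjusted p = 0.0292 by limma). In OSK it was 0.01, with a 95% interval from -0.12 to 0.13. The fall in the Sox2 line passed under all 23 alternatives, from -0.52 to -0.43. The Klf4 change missed the threshold under 9 of 23, among them without GFP replicate 2 (-0.18, limma adjusted p = 0.0592) or 3 (-0.17, 0.0726) and without Klf4 replicate 1 (-0.16, 0.177) or 2 (-0.21, 0.0678). The Oct4 change missed it without Oct4 replicate 1 (-0.21, limma adjusted p = 0.0557). OSK exceeded the Sox2 line by 0.51 (limma adjusted p = 1.32e-05) and the Oct4 line by 0.25 (limma adjusted p = 0.00671), the latter not without Oct4 replicate 1 (0.22, 0.0565) or OSK replicate 2 (0.21, 0.0676).

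SOD3 (chromosome 4, 24789912 to 24800842) had the lowest level of the 10, with 231, 277 and 266 normalised counts in GFP, 201 and 203 in the Oct4 line, 93.1 and 118 in the Sox2 line, 311 and 245 in the Klf4 line and 178 and 155 in OSK. The Sox2 libraries were the lowest of all, the OSK and Oct4 libraries lay below GFP, and of the Klf4 libraries 1 lay within the GFP range and 1 above it. In the Sox2 line it stood at 0.41 of the GFP mean, a log2 change of -1.29 (SE 0.15, adjusted p = 2.94e-06 by limma). In OSK the change was -0.63 (SE 0.15, adjusted p = 0.00271 by limma), and in the Oct4 line -0.35 (limma adjusted p = 0.0748), which passed only without GFP replicate 1 (-0.43, 0.0394). Across the 23 alternatives the Sox2 change ran from -1.46 to -1.12 and the OSK change from -0.81 to -0.53, all past the threshold. OSK lay above the Sox2 line by 0.66 (limma adjusted p = 0.00384; 0.49 and 0.0625 without Sox2 replicate 1) and differed from the Klf4 line by -0.73 (limma adjusted p = 0.00366). The latter missed the threshold without Klf4 replicate 1 (-0.56, 0.0699) or OSK replicate 2 (-0.63, 0.0551).

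CAT (chromosome 11, 34438925 to 34472062, plus strand), the heme enzyme of peroxisomes, was 841, 873 and 882 in GFP, 1097 and 1075 in the Oct4 line, 856 and 982 in the Sox2 line, 1616 and 1395 in the Klf4 line and 1512 and 1385 in OSK. The Klf4 and OSK libraries were the 4 highest and overlapped each other, the Oct4 libraries came next, and the Sox2 libraries overlapped GFP. CAT rose in the Klf4 line by 0.79 (SE 0.08, adjusted p = 1.86e-06 by limma), in OSK by 0.74 (SE 0.08, adjusted p = 2.72e-06 by limma) and in the Oct4 line by 0.33 (SE 0.08, adjusted p = 0.00533 by limma), each under all 23 alternatives. OSK exceeded the Oct4 and Sox2 lines by 0.41 and 0.66 (limma adjusted p = 0.00163 and 2.37e-05). OSK and the Klf4 line differed by -0.05, with a 95% interval from -0.25 to 0.14 (limma adjusted p = 0.746).

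Promoter windows of 300 bases, from 250 before to 50 after a start, were available from RefSeq (GRCh38.p14) for 7 of the 10 genes, 11 windows in all. SOD1, PRDX1 and PRDX6 had no window, so their promoters were not searched. They were searched on both strands for TGACNNNGC (the core of the antioxidant response element bound by NRF2), ATGCAAAT (the octamer bound by Oct4), ACAATG (a SOX motif) and GGGNGTGG (a KLF motif). The search gave a single match to the KLF motif, in CAT, and a single match to the octamer, in PRDX5. The KLF motif occurs in 17.2% of all 35116 windows and the octamer in 1.77%. The core of the antioxidant response element (13.3% of all windows) and the SOX motif (10.8%) had no match in the 11 windows. The windows of the genes with a match are printed because no other member window held any of the 4 motifs. The motif is in capitals, at position 203 of the CAT window (chr11:34438684-34438983, plus strand) and at position 100 of the PRDX5 window (chr11:64317871-64318170, plus strand, 1 of 2 for this gene). A match describes these letters and was not tested as a binding site.
CAT: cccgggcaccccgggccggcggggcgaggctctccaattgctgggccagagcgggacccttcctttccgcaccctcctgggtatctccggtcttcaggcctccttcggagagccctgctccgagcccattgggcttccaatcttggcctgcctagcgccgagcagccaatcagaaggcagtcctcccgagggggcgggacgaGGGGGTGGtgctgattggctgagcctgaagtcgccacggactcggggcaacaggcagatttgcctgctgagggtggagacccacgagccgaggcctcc
PRDX5: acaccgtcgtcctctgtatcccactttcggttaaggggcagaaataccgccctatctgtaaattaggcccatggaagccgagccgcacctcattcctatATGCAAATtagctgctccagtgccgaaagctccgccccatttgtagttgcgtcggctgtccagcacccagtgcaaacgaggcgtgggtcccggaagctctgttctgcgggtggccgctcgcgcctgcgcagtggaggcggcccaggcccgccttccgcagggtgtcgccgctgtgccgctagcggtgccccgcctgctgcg

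PRDX1 to PRDX4 are the typical peroxiredoxins, which work as dimers through a pair of cysteines. PRDX1 and PRDX2 are cytosolic, PRDX3 mitochondrial and PRDX4 resides in the endoplasmic reticulum, where it also feeds disulfide formation. PRDX1 (chromosome 1, 45511036 to 45523047) was 3912, 3989 and 3876 in GFP, 2872 and 2628 in the Oct4 line, 3203 and 3096 in the Sox2 line, 4364 and 4139 in the Klf4 line and 4564 and 4574 in OSK. The Oct4 and Sox2 libraries lay below all GFP libraries and the Klf4 and OSK libraries above them. It fell by 0.51 on the log2 scale in the Oct4 line (SE 0.06, adjusted p = 7.32e-06 by limma) and by 0.32 in the Sox2 line (SE 0.06, adjusted p = 0.000633 by limma). In OSK the change was 0.22 (SE 0.06, adjusted p = 0.0105 by limma), which missed the threshold without OSK replicate 1 (0.22, 0.0621) or 2 (0.22, 0.0666), and in the Klf4 line 0.11 (limma adjusted p = 0.18). OSK exceeded the Oct4 line by 0.73 (limma adjusted p = 3.45e-07) and the Sox2 line by 0.54 (limma adjusted p = 1.04e-05).

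PRDX2 (chromosome 19, 12796820 to 12801859) ran from 1846 to 2750 normalised counts over the 11 libraries, lowest in the Oct4 line (1986 ± 197, n = 2), 2390 ± 146 in GFP (n = 3) and highest in OSK (2746 ± 5.76, n = 2). The Oct4 change was -0.27 (SE 0.07, adjusted p = 0.00967 by limma), and -0.17 without Oct4 replicate 2 (0.178). The OSK change was 0.20 (SE 0.07, adjusted p = 0.0419 by limma), which missed the threshold under 13 of 23 alternatives. Among these were leaving out GFP replicate 1 (0.16, limma adjusted p = 0.0816) or 3 (0.19, 0.0941), OSK replicate 1 (0.20, 0.158) or 2 (0.20, 0.15) and Sox2 replicate 1 (0.20, 0.0565) or 2 (0.20, 0.0566). The difference between OSK and the Oct4 line, 0.47 (limma adjusted p = 0.000221), passed under all 23.

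PRDX3 (chromosome 10, 119167703 to 119178833), which removes hydrogen peroxide in the mitochondrial matrix where SOD2 produces it, was 2608, 2608 and 2546 in GFP, 2162 and 2053 in the Oct4 line, 2025 and 2032 in the Sox2 line, 2576 and 2785 in the Klf4 line and 2590 and 2767 in OSK. The 4 Oct4 and Sox2 libraries lay below the other 7. Its log2 change was -0.30 in the Oct4 line (SE 0.06, adjusted p = 0.00165 by limma) and -0.35 in the Sox2 line (SE 0.06, adjusted p = 0.000318 by limma). The Klf4 and OSK changes were both 0.05, with 95% intervals from -0.09 to 0.19. OSK exceeded the Oct4 and Sox2 lines by 0.35 and 0.40 (limma adjusted p = 0.000846 and 0.000239), under all 23 alternatives.

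PRDX4 (chromosome X, 23664262 to 23686399) was 507, 696 and 635 in GFP, 1186 and 1241 in the Oct4 line, 665 and 700 in the Sox2 line, 719 and 745 in the Klf4 line and 822 and 879 in OSK. The Oct4 libraries were the highest, the OSK libraries came next, and GFP replicate 1 was the lowest. In the Oct4 line the level was 1.98 times the GFP mean, a log2 change of 1.00 (SE 0.11, adjusted p = 1.71e-06 by limma), and 0.87 without GFP replicate 1 at the lowest of the alternatives. In OSK the change was 0.48 (SE 0.11, adjusted p = 0.00164 by limma), and the difference of OSK from the Oct4 line was -0.51 (SE 0.12, adjusted p = 0.00205 by limma). The Klf4 change of 0.27 had a 95% interval from 0.04 to 0.49 and did not pass (limma adjusted p = 0.0633), except without GFP replicate 2 (0.37, 0.0129). The Oct4 line exceeded the Sox2 and Klf4 lines by 0.83 and 0.73 (limma adjusted p = 3.67e-05 and 9.27e-05).

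PRDX5 (chromosome 11, 64318088 to 64321811) is the atypical peroxiredoxin that works as a monomer in mitochondria, peroxisomes and cytosol. It was 1952, 2486 and 2228 in GFP, 2308 and 2360 in the Oct4 line, 2938 and 3001 in the Sox2 line, 4271 and 3806 in the Klf4 line and 3422 and 3142 in OSK. The Klf4 libraries were the highest, the OSK and Sox2 libraries lay between them and GFP, and the Oct4 libraries lay within the GFP range. It rose by 0.87 in the Klf4 line (SE 0.09, adjusted p = 1.45e-06 by limma), by 0.57 in OSK (SE 0.09, adjusted p = 7.84e-05 by limma) and by 0.43 in the Sox2 line (SE 0.09, adjusted p = 0.000994 by limma), each under all 23 alternatives. The Oct4 change was 0.08, with a 95% interval from -0.11 to 0.27. OSK and the Klf4 line differed by -0.30 (SE 0.10, adjusted p = 0.038 by limma), which missed the threshold under 13 of 23 alternatives. These included leaving out GFP replicate 3 (-0.30, limma adjusted p = 0.0505), either Oct4 replicate (-0.30, 0.0531 each) and Sox2 replicate 1 (-0.30, 0.0553) or 2 (-0.30, 0.0554). They also included leaving out Klf4 replicate 1 (-0.21, limma adjusted p = 0.293) and OSK replicate 1 (-0.36, 0.0678) or 2 (-0.24, 0.262).

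PRDX6 (chromosome 1, 173477266 to 173488807) is the peroxiredoxin with a single working cysteine, which draws on glutathione and also reduces phospholipid peroxides. It was 2286, 2516 and 2482 in GFP, 4385 and 4877 in the Oct4 line, 2993 and 3364 in the Sox2 line, 3103 and 2833 in the Klf4 line and 8530 and 8294 in OSK. All 8 libraries of the factor lines lay above all GFP libraries, the OSK libraries were the highest and the Oct4 libraries came next. The log2 change from GFP was 1.79 in OSK (SE 0.08, adjusted p = 6.16e-11 by limma), where 5.71% of all genes tested changed more in size. It was 0.93 in the Oct4 line (SE 0.08, adjusted p = 8.54e-08 by limma), 0.39 in the Sox2 line (SE 0.08, adjusted p = 6e-04 by limma) and 0.29 in the Klf4 line (SE 0.08, adjusted p = 0.00749 by limma). The OSK change stayed between 1.73 and 1.83 over the 23 alternatives. The Klf4 change did not pass without Klf4 replicate 1 (0.22, limma adjusted p = 0.113) or with TMM factors over all features (0.33, 0.0605).

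Between neighbours in the order of PRDX6 levels, OSK exceeded Oct4 by 0.86 (SE 0.08, adjusted p = 4.8e-07 by limma) and Oct4 exceeded Sox2 by 0.54 (SE 0.08, adjusted p = 8.7e-05 by limma). The Sox2 and Klf4 lines did not differ beyond their spread (0.10, 95% interval from -0.08 to 0.27; limma adjusted p = 0.383). OSK stood 2.65-fold above the Sox2 line and 2.84-fold above the Klf4 line (limma adjusted p = 1.93e-09 and 4.68e-09).

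Levels of different genes were compared per kilobase of principal transcript in GENCODE 29. In GFP, PRDX1 stood highest at 3481 ± 51.3 normalised counts per kilobase (SD, n = 3), followed by PRDX5 (2488 ± 299), SOD1 (2487 ± 114), PRDX2 (2421 ± 147), PRDX3 (1626 ± 22.5) and PRDX6 (1387 ± 70.9). SOD2, PRDX4, CAT and SOD3 followed at 1005, 610, 377 and 169. In OSK, PRDX6 moved from rank 6 to rank 1, at 4804 ± 95.3 per kilobase (n = 2), ahead of PRDX1 at 4052 and PRDX5 at 3676. With the union of all annotated exons as the length instead, PRDX6 went from rank 5 to rank 2, behind PRDX5.

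The per-kilobase levels of the 6 peroxiredoxins were also summed. The sum was 11397, 12672 and 11972 in GFP, 12328 and 12154 in the Oct4 line, 12106 and 12258 in the Sox2 line, 15338 and 14801 in the Klf4 line and 17983 and 17705 in OSK. The Oct4 and Sox2 sums lay within the GFP range while their make-up differed, and the Klf4 and OSK sums lay above it. PRDX6 made up 11.5% of the sum in GFP, 21.6% with Oct4, 14.9% with Sox2, 11.2% with Klf4 and 26.9% with OSK. In OSK, PRDX6 supplied 58.6% and PRDX5 20.4% of the difference of the sum from GFP. In the Klf4 line PRDX5 supplied 66.5% of it. PRDX1 made up 30.4%, 27.9% and 28.7% of the sum in the GFP libraries and 20.7% and 19.2% in the Oct4 libraries. With exon-union lengths the GFP sums were 7833 to 8814 and the Sox2 sums 8701 and 8842, the latter just above that range, and in OSK PRDX5 made up 28.8% and PRDX6 27.8%.

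**Figure D3:**
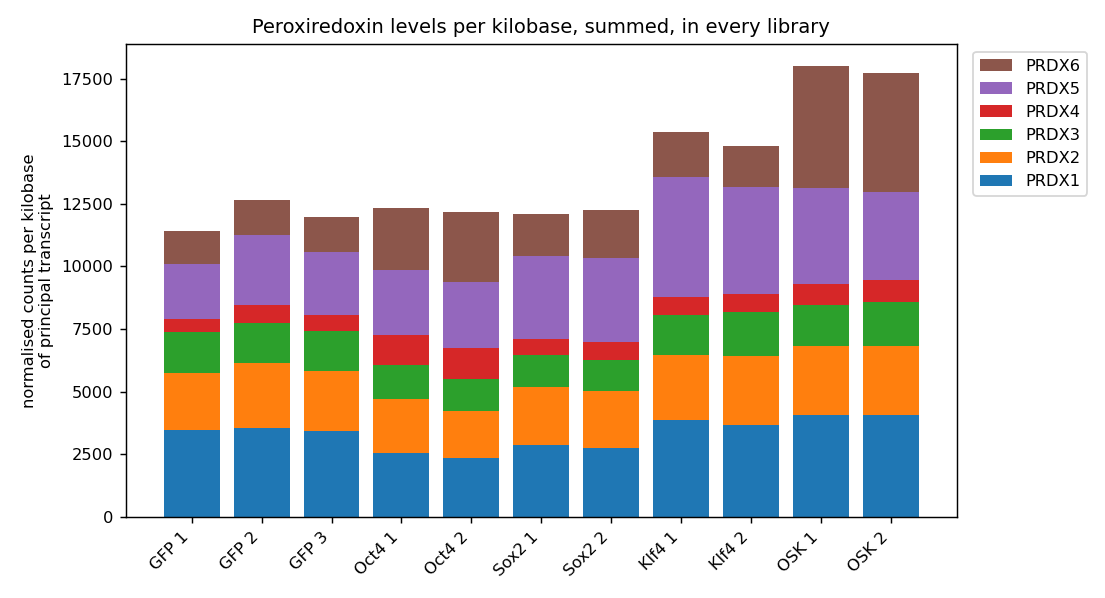
Normalised counts per kilobase of principal transcript (y axis, from 0) of PRDX1 to PRDX6, stacked, in each of 11 libraries (x axis). The stacks of the Oct4 and Sox2 lines end within the GFP range (11397 to 12672), and the OSK stacks reach 17983 and 17705 with PRDX6 as their widest segment.

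The combined line was next compared with the lines of its single factors. POU5F1 and SOX2 were lower in OSK than in the Oct4 and Sox2 lines. A lower level of these factors and the presence of the others cannot be told apart in those comparisons. OSK was higher than the Sox2 line for 9 of the 10 genes and lower for none (40.5% of all genes passed, 20% higher and 20.5% lower), the exception being PRDX5 (0.14, limma adjusted p = 0.265). Against the Oct4 line it was higher for 8 and lower for 1, PRDX4 (40.3% of all genes, 18.4% higher and 21.9% lower). Against the Klf4 line only PRDX6 was higher, SOD3 and PRDX5 were lower, and 7 did not pass (21.5% of all genes, 9.56% higher and 11.9% lower). Among genes with a mean of at least 100, the shares passing were 54.9%, 54% and 31% against the Sox2, Oct4 and Klf4 lines. That last count was 1 without Klf4 replicate 1 and 1 without OSK replicate 2, PRDX6 in both. SOD2 passed there without GFP replicate 1 (0.19, limma adjusted p = 0.0309), against 0.0561 with it. PRDX4 against Sox2 (0.32, limma adjusted p = 0.0402) missed the threshold under 11 of 23 alternatives, with adjusted p of 0.0526 and 0.0527 without Oct4 replicate 1 or 2, 0.182 and 0.0882 without Sox2 replicate 1 or 2, and 0.081 and 0.198 without OSK replicate 1 or 2. SOD1 against Oct4 (0.19, limma adjusted p = 0.0337) missed it under 8, with 0.135 and 0.0791 without Oct4 replicate 1 or 2 and 0.169 and 0.0721 without OSK replicate 1 or 2. PRDX2 against Sox2 (0.28, limma adjusted p = 0.0122) missed it without Sox2 replicate 2 (0.0814) and without OSK replicate 1 (0.0638) or 2 (0.0591).

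Among the single-factor lines, the Sox2 line was lower than the Klf4 line for 8 of the 10 genes and higher for none (40.8% of all genes, 20.1% higher and 20.7% lower). The genes that did not pass there were PRDX4 and PRDX6. The Oct4 line was lower than the Klf4 line for 6 genes and higher for PRDX4 and PRDX6 (41.7% of all genes, 21.8% higher and 20% lower). The Oct4 line was higher than the Sox2 line for SOD2, SOD3, PRDX4 and PRDX6 and lower for PRDX1 and PRDX5 (33.4% of all genes, 18% higher and 15.4% lower). Among genes with a mean of at least 100 the shares passing were 54.9%, 55.4% and 45.9%. Several of these calls rested on single libraries. Sox2 below Klf4 was lost for PRDX2 (-0.22, limma adjusted p = 0.0441) under 14 of 23 alternatives, without GFP replicate 3 or any Sox2, Klf4 or OSK replicate among them (0.0554 to 0.231). It was lost for SOD1 (-0.20, limma adjusted p = 0.0272) without any Sox2 or Klf4 replicate (0.0626 to 0.144). Oct4 below Klf4 was lost for SOD3 (-0.45, limma adjusted p = 0.0352) without either Oct4 replicate (0.116 and 0.106) or Klf4 replicate 1 (0.304). Oct4 below Sox2 was lost for PRDX1 (-0.20, limma adjusted p = 0.0364) without Oct4 replicate 2 (0.272) or either Sox2 or OSK replicate (0.0522 to 0.189), and for PRDX5 (-0.35, 0.0108) without Oct4 replicate 1 (0.0653) or Sox2 replicate 2 (0.0679). Oct4 above Sox2 was lost for SOD2 (0.26, limma adjusted p = 0.00613) without Oct4 replicate 2 (0.0577) or Sox2 replicate 1 (0.0505). CAT (0.24, limma adjusted p = 0.0502) passed there without GFP replicate 1 (0.0333), Sox2 replicate 2 (0.0297) or Klf4 replicate 1 (0.041) or 2 (0.0406). PRDX2 (-0.19, limma adjusted p = 0.0856) passed without GFP replicate 1 (0.0448) or Oct4 replicate 1 (0.0294), and SOD1 (0.16, 0.0979) without GFP replicate 1 (0.0475).

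The OSK change was next set against the 3 single-factor log2 changes added up. The factor levels were not matched: POU5F1 averaged 19281 in OSK against 67074 in the Oct4 line, and SOX2 17673 against 29123 in the Sox2 line. Factor level and combination therefore cannot be told apart in this contrast. Of the 10 genes 8 differed from the sum, 5 with OSK above it and 3 below (35.9% of all genes differed, 15.6% above and 20.3% below, and 50.2% of those with a mean of at least 100). PRDX6 changed by 1.79 in OSK against a sum of 1.61, a difference of 0.19 (SE 0.15, 95% interval from -0.14 to 0.51; limma adjusted p = 0.372). PRDX4 and PRDX5 fell short of their sums of 1.44 and 1.38 by log2 differences of -0.95 and -0.80 (limma adjusted p = 0.00229 and 0.00209). SOD2, PRDX1 and PRDX3, whose single-factor changes summed to -0.93, -0.72 and -0.60, were above the sum by 0.94, 0.94 and 0.65 (limma adjusted p = 1.81e-05, 2.42e-05 and 0.000886). CAT (-0.46, limma adjusted p = 0.0392), PRDX2 (0.41, 0.0441) and SOD3 (0.91, 0.0246) also passed. These calls were lost under 13, 13 and 9 of 22 alternatives. For CAT the libraries whose removal ended the call were all GFP and Oct4 replicates, Sox2 replicate 2, Klf4 replicate 1 and OSK replicate 2 (-0.49 to -0.36, limma adjusted p = 0.0607 to 0.125). For PRDX2 they were GFP replicates 2 and 3, Oct4 replicate 2, Klf4 replicate 1 and all Sox2 and OSK replicates (0.31 to 0.43, limma adjusted p = 0.0672 to 0.148). For SOD3 they were GFP replicates 2 and 3, Sox2 replicate 1, Klf4 replicate 2 and OSK replicate 1 (0.74 to 0.86, limma adjusted p = 0.0669 to 0.0775). The number passing was 5 without GFP replicate 2 and 5 without GFP replicate 3. SOD1 did not pass (0.24, limma adjusted p = 0.159), except without GFP replicate 1 (0.31, 0.0481). The all-gene median of this contrast was -0.02, and -0.14 with TMM factors over all features. The sum uses the GFP mean 3 times, so its error is larger than that of a single change.

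**Figure D4:**
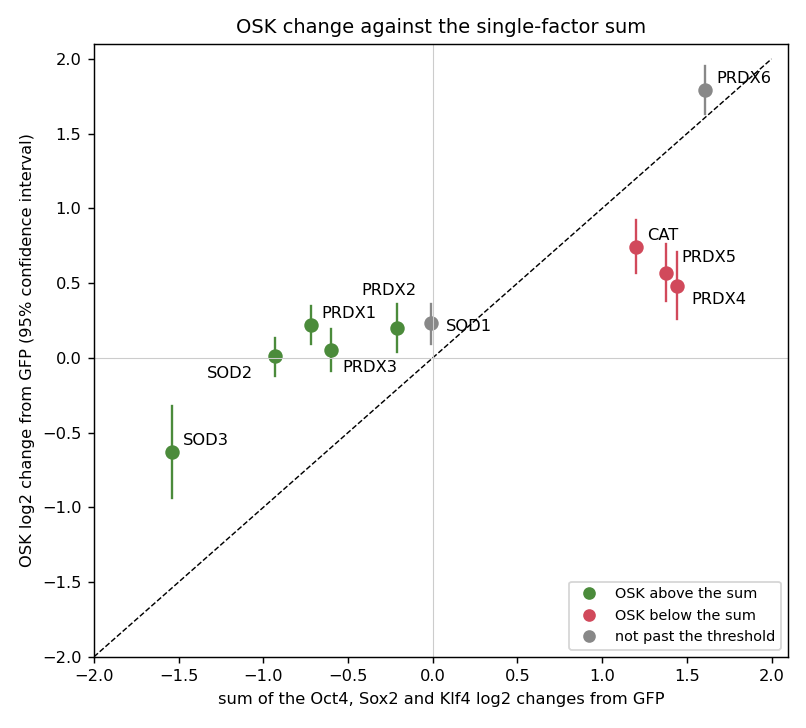
OSK log2 change from GFP with its 95% confidence interval (y axis) against the sum of the Oct4, Sox2 and Klf4 log2 changes (x axis) for the 10 genes, with the line of equality dashed. PRDX6 lies next to the line at a sum of 1.61 and a change of 1.79, 5 genes called above the line are green and CAT, PRDX4 and PRDX5, called below it, are red.

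The genes that supply, reload or surround these enzymes were taken from a list of 40, of which 36 passed the filter on low values. Against GFP, 10 rose and 7 fell in the Oct4 line, 10 rose and 6 fell in the Sox2 line, 10 rose and 7 fell in the Klf4 line, and 11 rose and 10 fell in OSK. Over all genes tested 37.3%, 41.6%, 33.5% and 39.7% passed in these comparisons, and 51.5%, 56.3%, 46.2% and 54.2% of those with a mean of at least 100, and nothing particular to the list is read from its counts. Calls of partner genes, some of them near the threshold, were not checked under the alternatives used for the 10 genes. TXNRD1, the cytosolic thioredoxin reductase that keeps cytosolic thioredoxin able to reload PRDX1 and PRDX2, fell in every line. It was 17018, 17344 and 17728 in GFP, 11023 and 11293 in the Oct4 line, 5025 and 5514 in the Sox2 line, 7978 and 8595 in the Klf4 line and 6607 and 7374 in OSK, with no overlap between any factor line and GFP. Its log2 changes were -0.64, -1.72, -1.07 and -1.31 (limma adjusted p at most 2.99e-06). The mitochondrial reductase TXNRD2 rose in the Sox2, Klf4 and OSK lines by 0.56, 0.72 and 0.60 (limma adjusted p = 0.000206, 2.62e-05 and 0.000108), and its Oct4 change was -0.12 (limma adjusted p = 0.359). TXN2, the mitochondrial thioredoxin, rose in the Klf4 line (0.36, limma adjusted p = 0.00255) and in OSK (0.24, 0.0272). TXN, its cytosolic counterpart, fell in the Oct4 line (-0.37, limma adjusted p = 0.0108). TXNIP, which binds and inhibits thioredoxin, rose by 2.31 in the Klf4 line and by 2.30 in OSK (limma adjusted p = 5.24e-07 and 3.72e-07). TXNRD3 fell in the Oct4 line (-0.38, limma adjusted p = 0.0447).

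Of the genes that work with single members, GSTP1, the glutathione transferase that reloads PRDX6, rose in the Klf4 line (0.77, limma adjusted p = 2.81e-05) and in OSK (0.62, 0.000169), while its Oct4 change was -0.20 (0.143). SRXN1, the sulfiredoxin that repairs overoxidised peroxiredoxins, fell in the Oct4 line (-0.92, limma adjusted p = 0.00903), from 87.5 to 153 normalised counts in GFP to 70.8 and 56.1. Of the sestrins, which are stress-induced regulators linked to peroxiredoxin repair, SESN1 rose in the Oct4, Sox2 and OSK lines by 0.64, 0.79 and 1.17 (limma adjusted p at most 4.17e-05). SESN3 rose in the Sox2 line (0.65, limma adjusted p = 0.00141) and SESN2 fell in the Klf4 line (-0.38, 0.0029). CCS, the copper chaperone of SOD1, rose in the Oct4 line (0.33, limma adjusted p = 0.0175). Of the copper delivery genes, the copper pump ATP7A rose in the Oct4 and Sox2 lines by 0.51 and 1.02 (limma adjusted p = 0.000478 and 3.04e-07), the chaperone ATOX1 in the Oct4 line by 0.49 (0.00104), and the importer SLC31A1 in the Oct4 line by 0.28 (0.00792) and in OSK by 0.40 (0.000487). ERO1A, the oxidase that produces hydrogen peroxide beside PRDX4 in the endoplasmic reticulum, was 851, 866 and 844 in GFP and 1422 and 1479 in the Oct4 line (0.76, limma adjusted p = 1.12e-06). In OSK, ERO1A fell (-0.35, limma adjusted p = 0.00198). Its paralog ERO1B rose in the Oct4, Sox2 and OSK lines by 0.43, 0.63 and 0.58 (limma adjusted p at most 0.0044), and P4HB, a protein disulfide isomerase, rose in all 4 lines, by 0.30 with Oct4, 0.52 with Sox2, 0.23 with Klf4 and 0.53 with OSK (limma adjusted p at most 0.0371).

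Of the peroxins, which build peroxisomes and import proteins such as catalase into them, PEX2 rose in the Oct4 line (0.23, limma adjusted p = 0.0434) and fell in the Sox2, Klf4 and OSK lines (-0.47, -0.29 and -0.35, limma adjusted p = 0.000311, 0.0147 and 0.00354). PEX10 fell in OSK (-0.38, limma adjusted p = 0.0128). NOX4, the NADPH oxidase that releases hydrogen peroxide directly, rose in the Sox2 line (1.16, limma adjusted p = 3.72e-06) and fell in the Klf4 line (-0.64, 0.00162) and in OSK (-0.99, 2.19e-05). CYBA, a membrane subunit of these oxidases, fell in the Oct4, Klf4 and OSK lines, with changes of -0.61, -0.58 and -1.03 (limma adjusted p at most 0.00041). GPX3, the secreted glutathione peroxidase, fell in all 4 lines, with log2 changes of -1.68, -2.61, -0.73 and -1.36 for Oct4, Sox2, Klf4 and OSK (limma adjusted p at most 2.04e-06). GPX4, which reduces lipid peroxides, fell in the Oct4, Sox2 and OSK lines (-0.62, -0.87 and -0.57, limma adjusted p at most 3.43e-05) and rose in the Klf4 line (0.32, 0.00582). GPX8 rose in the Sox2, Klf4 and OSK lines (0.73, 1.10 and 0.51, limma adjusted p = 0.000416, 1.27e-05 and 0.00741). GPX7 fell in OSK (-1.45, limma adjusted p = 0.0431), with only 2 to 28 reads in a library.

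**Figure D5:**
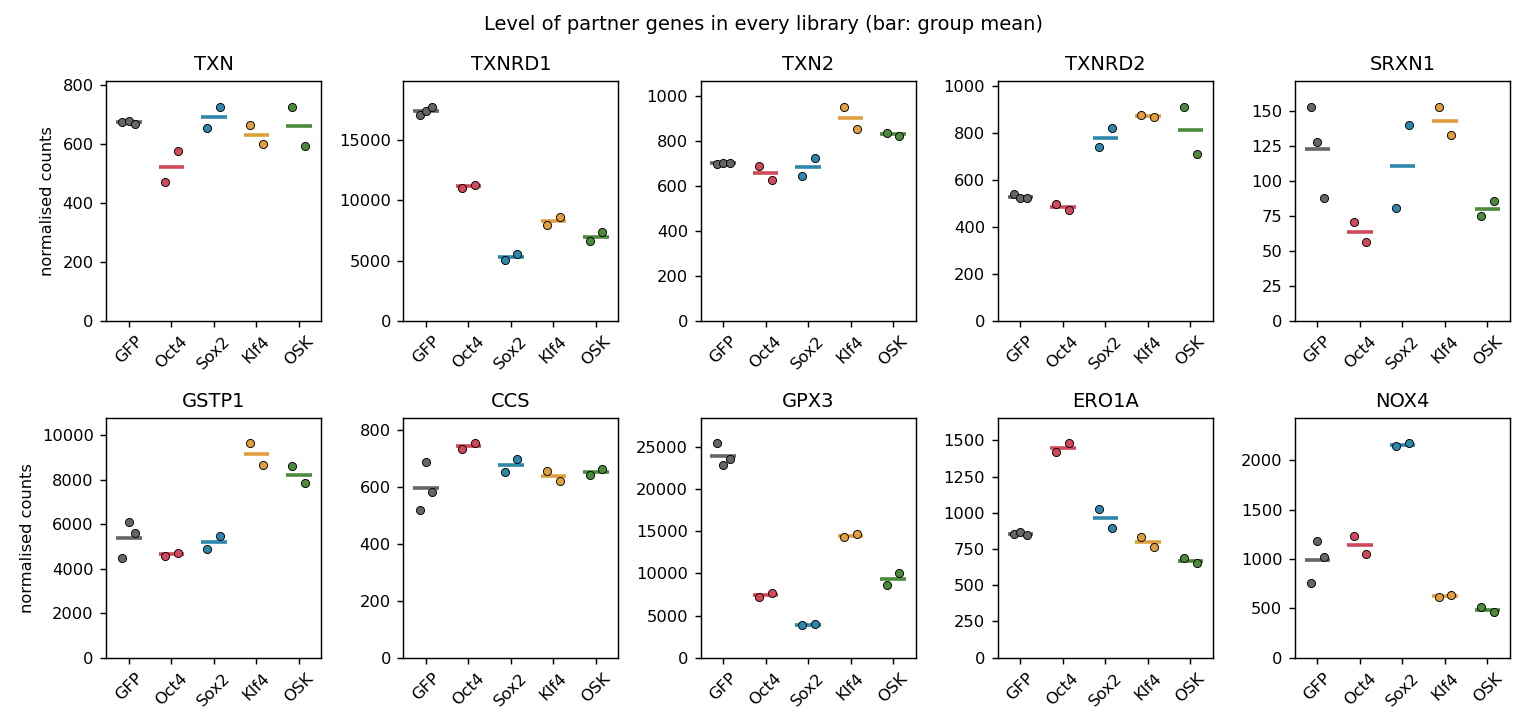
Normalised counts (y axis, from 0, a separate scale per gene) of 10 partner genes in each of 11 libraries (points), by line (x axis), with group means as bars. TXNRD1 is below GFP in all 8 libraries of the factor lines, and so is GPX3, at 3858 and 3970 in the Sox2 line against 22825 to 25404 in GFP.

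Pseudogenes named after these genes had few reads counted to them. The table listed 14 such symbols, whose summed reads reached at most 1.72% of the reads of the member, for PRDX3. Copies under other names were not searched, and reads that fit both a gene and a copy cannot be traced in these counts. Whether counting used strand is not given in the sources used here. In GENCODE 29, PRDX1 shares 24.9% of its exon bases with MMACHC on the opposite strand (at most 124 reads in a library). PRDX2 shares 14.1% with the antisense gene AC018761.2, also on the opposite strand, which is not among the listed features. SOD2 shares 2.40% with WTAP and 6.27% with ACAT2, on the opposite strand (at most 2038 and 1388 reads). Reads from such stretches cannot be told apart without strand.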

How the data were processed

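PolyA RNA of 11 ARPE-19 libraries was sequenced from NEBNext Ultra II libraries, per the labels' protocols. The submitters' processing notes name STAR 2.7.1a, featureCounts 1.6.2 and the human and mouse builds GRCh38/hg38 and GRCm38/mm10, with no role; annotation, strand use and scaling are not given in the sources used here. The deposited values are a signal, gene counts that the authors divided by a factor per library and rounded to 2 decimals. All nonzero values (100%) were whole multiples of 1 step per library within 0.0061, so whole reads were recovered by division. For GFP replicates 1 and 2 the step is near 1 (0.9930 and 1.0116). Their recovery rests on 27697 and 13668 values up to 200 whose multiples part from whole numbers.

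The 18828 genes reaching a value of 10 in 2 or more libraries entered limma 3.58.1 in R 4.3.3 on log2(value + 1), eBayes with trend, all libraries in 1 fit (6 residual and 9.21 prior degrees of freedom), and Benjamini-Hochberg adjustment. Fold changes on this scale understate those of low genes. edgeR 4.0.16 and DESeq2 1.42.0 were run on recovered reads as alternatives, beside other scalings, pseudocounts, filters, sample sets, left-out libraries and a replicate block (23 settings). Counts were simulated for all 11 libraries, with the change set in OSK, and all groups entered the fit. With 17964 genes tested for OSK against GFP, 77.8% of genes changed 1.5-fold with a mean of at least 100 were recovered. Of all genes so changed, 41.8% were recovered. Of the calls 4.82% were false at 1.5-fold, 11.6% at 2-fold and 7.83% at 4-fold. Only 189 tested genes were changed at 1.5-fold, in OSK alone, whereas 39.7% of genes passed for OSK against GFP in the data. These shares therefore need not hold for the data.

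All 10 members are described, as are 7 direct partners and the partner genes with the largest called change per subgroup, except some that are not reported here. Members and lists were chosen with earlier results of these data known. The figure of partners shows the 7 direct partners and GPX3, ERO1A and NOX4, chosen after their values were seen. Locations and lengths come from GENCODE 29 (GRCh38).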

Additional observations from a re-analysis of the deposited data

How the results depend on the processing

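Over the 11 comparisons, 2520 values of the 10 genes were recomputed under 23 alternatives, 1 of them, the fit without GFP replicate 1 and OSK replicate 1, added after seeing the data. Of these, 2321 kept their direction and their side of the threshold, 162 missed the threshold, 19 newly passed it and 18 changed sign, none of the last being a called value. The changes of sign were all near 0. For Oct4 against GFP, SOD1 (-0.00) and PRDX5 (-0.01) did so without GFP replicate 1, and also (-0.00 and -0.01) without GFP replicate 1 and OSK replicate 1. CAT in the Sox2 line was -0.02 without Sox2 replicate 2. In the Klf4 line SOD3 was -0.07 without Klf4 replicate 1 and PRDX3 -0.01 without Klf4 replicate 2, and in OSK SOD2 was -0.00 without GFP replicate 1 and -0.03 without OSK replicate 2. For OSK against Klf4, PRDX3 was 0.00 with edgeR (both scalings), DESeq2 and TMM over tested genes, 0.06 without Klf4 replicate 2 and 0.05 without OSK replicate 1, with or without GFP replicate 1. CAT there was 0.05 without Klf4 replicate 1 and 0.01 without OSK replicate 2. Over all 23 alternatives, the ranges against GFP were -0.00 to 0.08 (SOD1) and -0.01 to 0.16 (PRDX5) for Oct4 and -0.02 to 0.18 (CAT) for Sox2. They were -0.07 to 0.27 (SOD3) and -0.01 to 0.11 (PRDX3) for Klf4 and -0.03 to 0.04 (SOD2) for OSK. For OSK against Klf4 they were -0.16 to 0.05 (CAT) and -0.06 to 0.06 (PRDX3).

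TMM scaling over all features lowered the number of the 10 genes passing to 4 (Oct4), 2 (Klf4) and 5 (OSK) against GFP, 3 (Oct4 against Sox2), 5 (Sox2 against Klf4) and 4 (OSK against the sum). No filter gave 5 for the sum. Leaving out 1 library in turn gave 2 to 4 genes for Klf4 and 5 to 8 for OSK against GFP, 1 to 4 for OSK against Klf4 and 5 to 8 for the sum. A line left with 1 library was assumed to vary like the others. Over all genes tested, OSK against Klf4 gave 2519 to 4905 calls when 1 library was left out, against 4049. Same-numbered libraries correlated in their deviations at -0.0693 to 0.435 over 20 pairs, 2 of them above 0.1 (GFP with OSK). The differently numbered GFP replicate 3 and OSK replicate 2 correlated at 0.337. The deviations of the 2 libraries of a factor line mirror each other, so the 20 pairs are not separate checks. The replicate numbers were not taken as pairs. With the replicate number as a block, 5 genes passed for the sum against 8 without it, and the other counts stayed within 1.5 times.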

Other observations

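PRDX6-AS1, a long noncoding RNA listed beside PRDX6, had 92.3, 85.0 and 58.3 normalised counts in GFP, 105 and 112 in the Oct4 line, 88.6 and 108 in the Sox2 line, 70.6 and 66.3 in the Klf4 line and 176 and 235 in OSK. As for PRDX6, the OSK libraries were the highest, and the log2 change from GFP was 1.39 (SE 0.21, adjusted p = 5.91e-05 by limma), beside 0.48, 0.34 and -0.17 in the Oct4, Sox2 and Klf4 lines, none of which passed (limma adjusted p = 0.083, 0.217 and 0.579). Its reads were 2.06% to 4.04% of those of PRDX6, and its span in RefSeq does not overlap PRDX6. SOD2-OT1, a noncoding RNA at the SOD2 locus, had 8.94 to 11.7 normalised counts in GFP and was called higher in the Oct4 line (1.14, limma adjusted p = 0.0292), where SOD2 was lower, and in OSK (1.03, 0.045). It had at most 22 reads in a library, and its exons overlap those of SOD2.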
